A study of Mus musculus with 32 samples.

Results

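The genes described here are 28 genes of cholesterol synthesis, sensing, movement, storage and export, taken by their gene symbols out of the 54087 genes listed in each of 32 RNA-seq libraries of mouse regulatory T cells (Tregs). Tregs, a class of CD4 T cells defined by Foxp3, hold other immune cells in check. They were purified by GFP from C57BL/6 mice of 2.5 months with a Foxp3-IRES-GFP knock-in, so that every group carries this allele. Cultured cells received IL-2 at 10 ng/ml on plates coated with antibodies to CD3 and CD28, with or without an agonist of 1 of 4 members of the tumour necrosis factor receptor superfamily. The agonists were STAR2 (TNC-sc(mu)TNF80) for TNFR2 at 12 ng/ml, antibody 3H3 for 4-1BB at 10 µg/ml, TL1A for DR3 at 12 ng/ml and OX40L for OX40 at 100 ng/ml. Each agonist was sampled at 18 h and 36 h, beside control cultures without agonist at both times and beside resting cells. All groups had 3 libraries, save the OX40 agonist at 18 h, which had 2, and means, SDs and fold changes rest on these n. All 28 members passed the filter on low counts.

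Cells build cholesterol from acetyl-CoA through the mevalonate pathway, which yields farnesyl diphosphate, and then through squalene and lanosterol. The transcription factor SREBP2, encoded by Srebf2, sits in the endoplasmic reticulum with its escort SCAP, and INSIG proteins hold both there when sterols are plentiful. When sterols run low, SREBP2 is cut and raises the synthesis genes, while oxysterols that build up in sterol-rich cells act through LXR to raise the exporters ABCA1 and ABCG1. T cells that are about to divide are known to need sterols for new membrane.

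Promoter sequences are shown for 4 members: Hmgcs1 as an early enzyme with a match to the sterol regulatory element, Mvd as an enzyme with paired CCAAT boxes, Insig1 as a sterol sensor, and Abca1 as an exporter that moved the other way. They come from RefSeq (GRCm38.p6), read 5′ to 3′ along the gene's own strand, up to 250 bases before the RefSeq start. Where the GENCODE gene begins earlier, the stretch ends before it. Capitals mark matches to a sterol regulatory element (TCACNCCAC), to the CCAAT box bound by NF-Y, or to an LXR half-site pair (AGGTNANNNNAGGTCA), each searched on both strands, so that ATTGG is CCAAT on the other strand.
Hmgcs1 (chr13:119690101-119690350, plus strand): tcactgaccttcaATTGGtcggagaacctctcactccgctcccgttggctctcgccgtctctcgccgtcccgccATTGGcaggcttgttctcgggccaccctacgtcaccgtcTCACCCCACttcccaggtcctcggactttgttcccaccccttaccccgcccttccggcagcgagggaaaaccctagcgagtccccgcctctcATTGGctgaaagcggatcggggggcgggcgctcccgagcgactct
Mvd (chr8:122443423-122443672, minus strand): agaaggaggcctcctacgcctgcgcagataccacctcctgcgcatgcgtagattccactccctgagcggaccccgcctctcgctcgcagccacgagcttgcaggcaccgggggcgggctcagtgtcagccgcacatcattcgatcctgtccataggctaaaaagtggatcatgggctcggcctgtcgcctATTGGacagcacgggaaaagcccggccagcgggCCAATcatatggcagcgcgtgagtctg
Insig1 (chr5:28071162-28071362, plus strand): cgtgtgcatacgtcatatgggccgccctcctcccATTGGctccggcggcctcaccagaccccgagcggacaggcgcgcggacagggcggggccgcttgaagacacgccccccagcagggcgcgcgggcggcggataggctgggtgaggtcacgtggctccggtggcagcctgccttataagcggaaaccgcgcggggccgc
Abca1 (chr4:53159896-53160145, minus strand): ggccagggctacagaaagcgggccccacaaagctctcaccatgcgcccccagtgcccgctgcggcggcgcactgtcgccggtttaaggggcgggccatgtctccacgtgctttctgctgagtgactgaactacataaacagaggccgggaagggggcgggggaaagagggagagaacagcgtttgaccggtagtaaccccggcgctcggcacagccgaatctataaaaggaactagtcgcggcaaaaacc

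RefSeq windows from 250 bases before to 50 bases after the start were at hand for 22 of the 28 members. A CCAAT box stood in the windows of 19 of these 22 genes, against 41.1% of 27025 genes with a window. Abca1, Acat2 and Scap had none. The GC box GGGCGG was present for 21 of 22 members, against 38.2% of genes. The sterol element in the exact form searched was found for 1 member, Hmgcs1, with its first base at position -137 from the start, against 1.44% of genes. The LXR pair in the exact form searched was found for no member, against 0.041% of genes. With a form this rare, no match among 22 genes was likely in any case. Variants of the pair were not searched, so unmarked letters, those of Abca1 included, do not show that an LXR site is absent. Such matches describe letters in these windows and nothing beyond them.

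Total expected counts were 11880270 to 38083925 per library. The labelled cell type was checked on 6 Treg and T cell markers, among them Foxp3, Il2ra and Cd4, whose summed level ran to 3410 to 3630 CPM (counts scaled by library total) in the resting libraries, then 5870 to 5900 CPM in 18 h controls and 4900 to 5040 CPM in 36 h controls. All 6 were detected in every group. In 6 libraries over 10000 CPM came from transcripts at a ribosomal RNA locus (Gm42418 and AY036118), namely control replicates 1 and 2 at 18 h, the first TNFR2 agonist replicate at each time, DR3 agonist replicate 3 at 36 h and OX40 agonist replicate 2 at 36 h. The highest of the others was 9105 CPM. Calls of the 28 members that were lost without these libraries, which leaves 1 control at 18 h, are given with their values below.

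The first comparison asked how the sterol genes of stimulated Tregs differed from those of resting Tregs. At 18 h, 22 members rose and 5 fell among the 28, against 40.9% and 40.1% of all 14313 genes tested. With 80.9% of all genes called in either direction, a change as such was common, and rises and falls took near-equal shares over all genes, while rises outnumbered falls among the members. Their median log2 fold change was 0.91, against -0.01 over all genes tested. By at least 2-fold, 13 members rose and 2 fell, against 19.9% and 20.6% of all genes. At 36 h, 24 members rose and 4 fell, against 42.4% and 42.1% of all genes, with a median of 1.02, and 14 rose and 2 fell by at least 2-fold, against 23% and 24.2%. Control and resting libraries did not overlap for 28 of 28 members at both times. Over all genes this held for 81.8% at 18 h and 84.5% at 36 h. Calls here and below are adjusted p values under 0.05 in edgeR's quasi-likelihood test with Benjamini-Hochberg adjustment over all genes. No culture went without stimulation, so effects of the antibodies, of IL-2, of culture and of time cannot be told apart, and in bulk RNA fewer expressing cells and less RNA per cell cannot be told apart either.

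**Figure D1:**
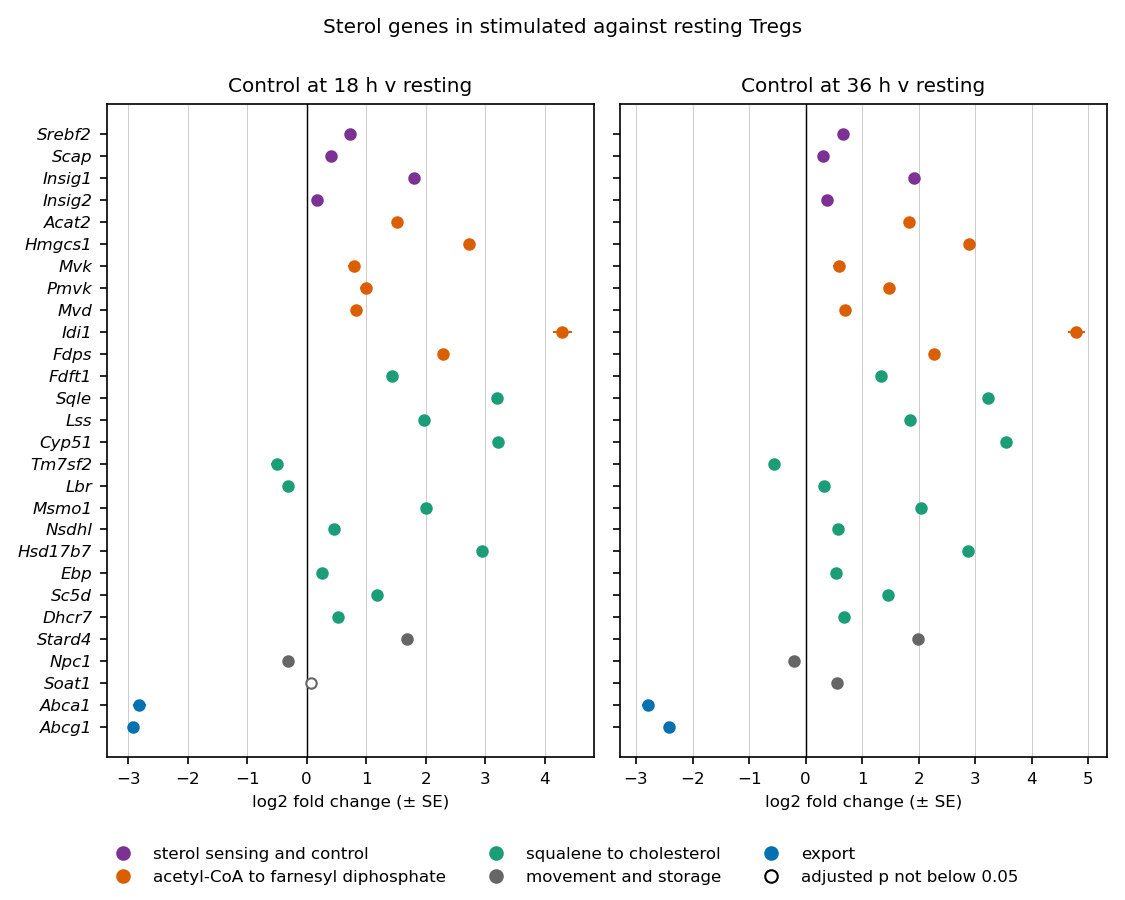
Log2 fold change (± SE) of the 28 sterol genes in control cultures at 18 h (left) and at 36 h (right) over resting cells, coloured by role, with an open circle where the adjusted p was not below 0.05. Idi1 stood highest at 4.30 and 4.79, and the exporters Abca1 and Abcg1 stood lowest, between -2.92 and -2.42.

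Summed over the 28 members, TPM (a level scaled for gene length and library) were 782.9 to 817.7 in resting libraries, 1348 to 1420 in 18 h controls and 1541 to 1573 in 36 h controls. The order of levels changed with stimulation. In resting cells Lbr (119 ± 3.41 TPM, SD), Srebf2 (100.5 ± 3.18 TPM), Scap (73.3 ± 5.68 TPM) and the exporter Abcg1 (56.1 ± 3.01 TPM) had the highest levels. The libraries of these 4 genes did not overlap, while those of Abcg1 overlapped with those of the next gene, Ebp (53.3 ± 8.89 TPM). In controls at 18 h the order was Srebf2 (155 ± 5.25 TPM), Fdps (119 ± 6.02 TPM), Lbr (91.7 ± 3.42 TPM) and Cyp51 (87.8 ± 5.57 TPM), and the libraries of Cyp51 overlapped with those of Lbr, Scap, Hmgcs1 and Idi1. In controls at 36 h Srebf2 (148 ± 3.21 TPM) and Lbr (138 ± 2.14 TPM) were followed by Fdps, Cyp51 and Idi1 at 118 ± 3.44, 111 ± 4.44 and 108 ± 3.40 TPM, each overlapping with its neighbour. Abcg1 was at 6.71 ± 0.156 TPM at 18 h and 9.37 ± 0.515 TPM at 36 h.

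All 4 genes of sterol sensing rose at both times. Srebf2 (ENSMUSG00000022463, mm10 chromosome 15, 82147181 to 82205379, plus strand), which encodes SREBP2, had 240, 239 and 249 CPM in resting cells, 406, 399 and 406 CPM in controls at 18 h and 389, 371 and 396 CPM in controls at 36 h. Every stimulated library was above every resting one, and the rise at 18 h was 0.74 ± 0.04 on the log2 scale (± SE, adjusted p 1.09e-23). Insig1 (ENSMUSG00000045294, mm10 chromosome 5, 28071363 to 28078662, plus strand), the inducible retention factor, had 23.7, 24.3 and 25.3 CPM in resting cells, 88.03, 82.6 and 86.1 CPM at 18 h and 93.8, 90.5 and 92.1 CPM at 36 h. It changed more than Srebf2, by 1.81 ± 0.05 at 18 h and 1.92 ± 0.05 at 36 h (adjusted p 2.02e-36). Its relative Insig2 (ENSMUSG00000003721, mm10 chromosome 1, 121304353 to 121332589, minus strand) had 16.2, 16.1 and 17.2 CPM in resting cells, 18.1, 18.8 and 18.8 CPM at 18 h and 21.8, 21.9 and 20.7 CPM at 36 h. The Insig2 groups did not overlap, yet its change at 18 h was small (0.17 ± 0.08, adjusted p 0.0328). The call was lost under 8 of 14 alternatives, with adjusted p of 0.191 in DESeq2 and 0.134 under another scaling. The lowest value of the 14 was 0.05 (adjusted p 0.503 in edgeR), with a stricter filter of 5 CPM in 3 libraries. Leaving out 1 library also ended the call, with adjusted p of 0.0746 and 0.0618 without control replicates 2 and 3 and of 0.131 and 0.134 without resting replicates 1 and 2, and so did leaving out the libraries high in the ribosomal locus (0.20, adjusted p 0.0895). At 36 h Insig2 rose by 0.38 ± 0.07 (adjusted p 4.8e-06). Scap, the escort of SREBP2, rose by 0.40 ± 0.04 at 18 h and 0.31 ± 0.04 at 36 h.

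**Figure D2:**
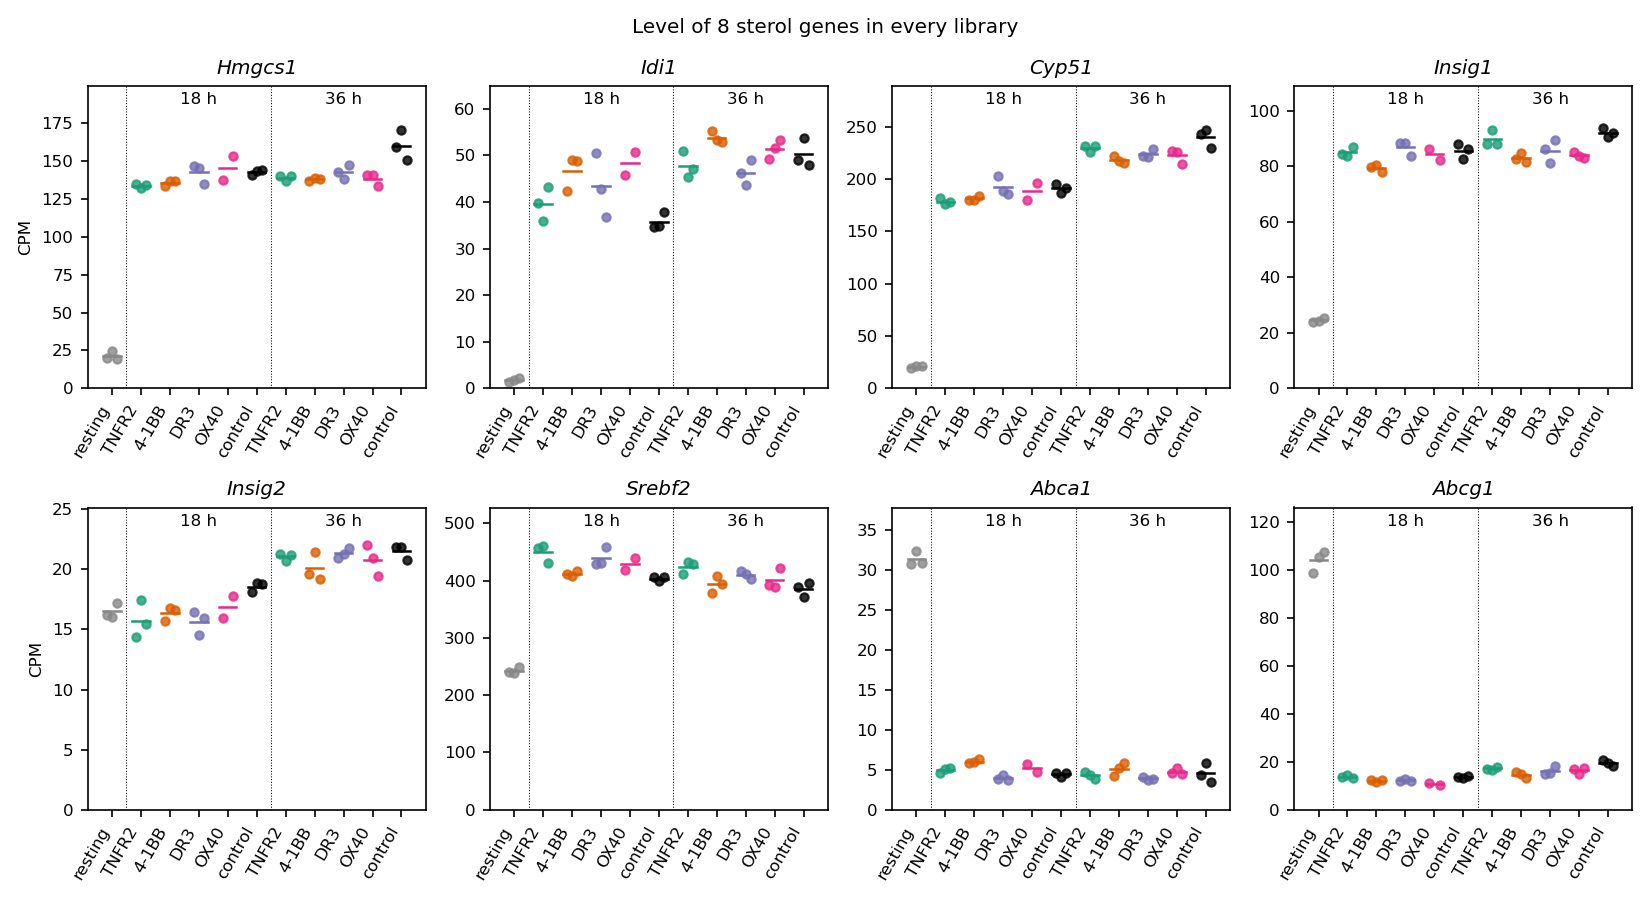
CPM of 8 sterol genes in each of the 32 libraries (points) with group means (bars), for resting cells, then the agonist cultures and their controls at 18 h and at 36 h. Stimulated libraries lie well above the resting ones for Hmgcs1, Idi1, Cyp51, Insig1 and Srebf2 and well below them for Abca1 and Abcg1, while Insig2 moves over a narrow range of 14.3 to 22.1 CPM.

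The 7 enzymes from acetyl-CoA to farnesyl diphosphate all rose at both times, with median log2 fold changes of 1.52 at 18 h and 1.83 at 36 h. Hmgcs1 (ENSMUSG00000093930, mm10 chromosome 13, 119690379 to 119708260, plus strand), which condenses acetyl-CoA with acetoacetyl-CoA, had 20.3, 24.6 and 19.5 CPM in resting cells, 141, 143 and 144 CPM at 18 h and 159, 171 and 151 CPM at 36 h. No stimulated library came near the resting ones, and the change was 6.61-fold at 18 h (log2 2.73 ± 0.06, adjusted p 1.7e-39). Idi1 (ENSMUSG00000058258, mm10 chromosome 13, 8885501 to 8892451, plus strand), the isomerase that makes dimethylallyl diphosphate, had 1.38, 1.84 and 2.27 CPM in resting cells, 34.6, 34.8 and 37.8 CPM at 18 h and 49.02, 53.8 and 47.9 CPM at 36 h. It had the largest rise of the 28 members, 4.30 ± 0.16 on the log2 scale at 18 h and 4.79 ± 0.15 at 36 h (adjusted p 1.65e-22). A paralog, Idi2, lies beside Idi1, and Idi1 had whole-number expected counts in all 32 libraries at the 2 decimals deposited. Reads that fit both genes could still have been given wholly to 1 of them, which was not tested. Fdps, which makes farnesyl diphosphate, rose to 75.3 ± 1.76 CPM at 18 h, against 15.6 ± 2.36 CPM in resting cells (log2 2.28 ± 0.07). Acat2 (ENSMUSG00000023832, mm10 chromosome 17, 12942890 to 12960747, minus strand), which makes acetoacetyl-CoA, had 10.1, 11.03 and 11.7 CPM in resting cells, 31.6, 30.6 and 31.8 CPM at 18 h and 37.5, 36.6 and 42.5 CPM at 36 h, a change of 1.52 ± 0.08 at 18 h. The kinases Mvk and Pmvk and the decarboxylase Mvd rose less, by 0.80 ± 0.10, 0.99 ± 0.09 and 0.82 ± 0.08 at 18 h. Mvk (ENSMUSG00000041939, mm10 chromosome 5, 114444269 to 114460591, plus strand) had 6.90, 7.48 and 7.20 CPM in resting cells, 12.1, 12.9 and 12.5 CPM at 18 h and 10.5, 10.5 and 11.4 CPM at 36 h.

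Of the 12 enzymes from squalene to cholesterol, 10 rose and 2 fell at 18 h, and 11 rose and 1 fell at 36 h. Cyp51 (ENSMUSG00000001467, mm10 chromosome 5, 4081145 to 4104746, minus strand), the lanosterol demethylase, had 18.9, 21.1 and 21.4 CPM in resting cells, 196, 186 and 192 CPM at 18 h and 243, 247 and 230.1 CPM at 36 h. All 6 control libraries were far above the 3 resting ones, a rise of 9.34-fold at 18 h (log2 3.22 ± 0.05, adjusted p 6.33e-45) and 11.7-fold at 36 h. Cyp51 overlaps Akap9 on the opposite strand, and without strand in the kit reads of such pairs cannot be told apart. Sqle, the squalene epoxidase, was at 98.1 ± 3.41 CPM at 18 h, against 10.7 ± 1.54 CPM in resting cells (log2 3.20 ± 0.06). Hsd17b7, a sterol ketoreductase, was at 40.9 ± 1.44 CPM, against 5.32 ± 0.422 CPM in resting cells (log2 2.95 ± 0.08). These enzymes stand with Cyp51 among the largest rises of the list. The lanosterol synthase Lss, the squalene synthase Fdft1 and the desaturase Sc5d rose by 1.97, 1.43 and 1.19 on the log2 scale at 18 h, and the methyl oxidase Msmo1 rose to 61.2 ± 2.01 CPM, against 15.1 ± 2.72 CPM in resting cells. The smallest rises were those of Dhcr7 (0.53), which catalyses the last step of one branch, Nsdhl (0.46) and Ebp (0.27). Tm7sf2 and Lbr both encode sterol C14 reductases, and LBR is also a nuclear envelope protein. Tm7sf2 fell to 30.3 ± 1.14 CPM at 18 h, against 42.8 ± 3.92 CPM in resting cells (log2 -0.50 ± 0.09, adjusted p 8.88e-06), and its row in the deposited tables also takes in transcripts of its neighbour Vps51. Lbr fell at 18 h (-0.31 ± 0.04, adjusted p 1.47e-10) and was above resting cells at 36 h (0.32 ± 0.04, adjusted p 2.52e-11), with 203 ± 5.97 CPM in resting cells, 164 ± 3.43 CPM at 18 h and 253 ± 3.40 CPM at 36 h. Fdft1 and Lbr overlap Ctsb and Dnah14 on the other strand.

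Among the 3 genes of movement and storage, Stard4, which carries sterol between membranes, was at 34.7 ± 1.04 CPM in resting cells, 112 ± 2.28 CPM at 18 h and 138 ± 3.43 CPM at 36 h. It rose by 1.69 ± 0.05 on the log2 scale at 18 h and 1.98 ± 0.04 at 36 h. Npc1 (ENSMUSG00000024413), which lets cholesterol out of lysosomes, had 66.7, 62.1 and 65.5 CPM in resting cells, 51.8, 51.5 and 52.1 CPM at 18 h and 57.1, 57.00 and 54.7 CPM at 36 h. It fell at both times, with log2 fold changes of -0.32 ± 0.05 at 18 h (adjusted p 3.1e-08) and -0.20 ± 0.05 at 36 h (adjusted p 8.69e-05) and no overlap between stimulated and resting libraries. Soat1 (ENSMUSG00000026600, mm10 chromosome 1, 156424525 to 156474331, minus strand), which esterifies cholesterol for storage, had 63.2, 60.7 and 61.9 CPM in resting cells, 66.5, 65.3 and 63.8 CPM at 18 h and 90.99, 91.7 and 89.1 CPM at 36 h. Soat1 was the member that did not pass at 18 h (0.07 ± 0.05, adjusted p 0.192), and it rose at 36 h (0.55 ± 0.05, adjusted p 5.08e-14).

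Both exporters fell. Abca1 (ENSMUSG00000015243, mm10 chromosome 4, 53030787 to 53159895, minus strand), which loads cholesterol onto lipid-poor apolipoproteins, had 30.8, 32.4 and 30.97 CPM in resting cells, 4.59, 4.12 and 4.65 CPM at 18 h and 4.31, 5.83 and 3.49 CPM at 36 h. Abcg1 (ENSMUSG00000024030, mm10 chromosome 17, 31057675 to 31117988, plus strand), which passes cholesterol to high-density lipoprotein, had 98.6, 105 and 108 CPM in resting cells, 13.6, 13.3 and 14.2 CPM at 18 h and 20.6, 19.4 and 18.2 CPM at 36 h. Every resting library was above every stimulated one for both genes. Log2 fold changes at 18 h were -2.82 ± 0.11 for Abca1 (adjusted p 3.87e-28) and -2.92 ± 0.07 for Abcg1 (adjusted p 4.35e-38), and at 36 h they were -2.79 ± 0.11 and -2.42 ± 0.06. Macrophages are rich in both exporters, and markers of other cells moved the same way. The 10 myeloid and dendritic markers were all detected in resting cells, with sums of 16.2 to 18.4 CPM per library. In 18 h controls Itgam, Fcgr1 and Cd14 were at 0 and the sums were 3.96 to 5.6 CPM, and in 36 h controls Itgax was at 0 and the sums were 11.1 to 12.7 CPM. Mpeg1 made up most of the last sum with a mean of 8.34 CPM. Csf1r averaged 4.41 CPM in resting cells, 0.0905 CPM at 18 h and 0.0137 CPM at 36 h. The 6 B cell markers, most of whose sum came from Ighm, had sums of 778 to 819 CPM in resting libraries, 324 to 349 CPM at 18 h and 310 to 328 CPM at 36 h. The 5 markers of CD8 T cells, NK cells and gamma-delta T cells had sums of 21.6 to 24.2 CPM in resting libraries, 8.68 to 9.45 CPM at 18 h and 8.17 to 9.37 CPM at 36 h, with Ncr1 at 0 in these 9 libraries. The part of such cells in the fall of the exporters was not tested.

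Between 18 h and 36 h the sterol genes of control cultures changed by less than 2-fold, and more of them rose than fell. Of the 28 members, 15 were higher and 3 lower at 36 h, against 25.6% and 26.6% of all genes (52.2% in either direction), with a median log2 fold change of 0.12. Lbr (0.63 ± 0.04), Abcg1 (0.50 ± 0.07), Idi1 (0.49 ± 0.08), Pmvk (0.48 ± 0.07), Soat1 (0.48 ± 0.05) and Cyp51 (0.33 ± 0.04) had the largest rises. Sqle (0.03, adjusted p 0.543), Fdps (-0.02, adjusted p 0.823), Msmo1 (0.04, adjusted p 0.551) and Abca1 (0.02, adjusted p 0.917) did not pass. The 3 lower genes, Mvk (-0.21), Lss (-0.13) and Scap (-0.09), each lost the call on leaving out single libraries. For Mvk these were replicates 2 and 3 at 18 h and 1 and 2 at 36 h (adjusted p up to 0.124), for Lss replicates 1 and 2 at 18 h and 2 at 36 h (up to 0.104), and for Scap each library at 18 h and replicate 2 at 36 h (up to 0.21). The rises of Insig1 (0.11), Npc1 (0.12) and Dhcr7 (0.14) were lost likewise. For Insig1 these were replicate 2 at 18 h and 1 at 36 h (up to 0.101), for Npc1 replicates 1 and 2 at both times (up to 0.0801), and for Dhcr7 each library at 18 h and replicates 1 and 3 at 36 h (up to 0.204). Without the libraries high in the ribosomal locus 11 members were called, and the rises of Hmgcs1 (0.16, adjusted p 0.0696), Insig2 (0.20, 0.12), Insig1 (0.10, 0.18), Npc1 (0.12, 0.216) and Dhcr7 (0.14, 0.234) and the lower values of Mvk (-0.21, 0.22), Scap (-0.08, 0.304) and Lss (-0.08, 0.412) did not pass.

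What each agonist added was asked against the control of the same time. At 18 h the TNFR2 agonist changed 13 of the 28 members, against 31.1% of all genes tested, with 6 higher and 7 lower, against 15.8% and 15.3%. The 4-1BB agonist changed 9, against 25.8% of genes, with 5 higher and 4 lower, against 12.7% and 13.1%. The DR3 agonist changed 4, against 19.6%, with 3 higher and 1 lower, against 9.66% and 9.94%. The OX40 agonist changed 4, against 19%, with 3 higher and 1 lower, against 9.32% and 9.71%. At 36 h the TNFR2 agonist changed 8, against 24.8%, with 4 higher and 4 lower, against 13% and 11.9%. The 4-1BB agonist changed 9, against 22.5%, with 2 higher and 7 lower, against 10.9% and 11.5%. The DR3 agonist changed 3, against 13.4%, with 0 higher and 3 lower, against 6.97% and 6.39%. The OX40 agonist changed 6, against 13.3%, with 1 higher and 5 lower, against 7.12% and 6.21%. Changes were small, with log2 fold changes from -0.42 to 0.44 over all members and agonists. The 4 comparisons of a time share their control libraries, so that a high or low control moves all of them together. Agonist and control libraries did not overlap for 16, 15, 7 and 12 members at 18 h with TNFR2, 4-1BB, DR3 and OX40. Over all genes this held for 41.9%, 42.7%, 34.3% and 44.5%. At 36 h it held for 11, 16, 15 and 15 members, against 38.7%, 36.4%, 31.2% and 28.5% of all genes. No test was made of these counts. Apart from Srebf2, Insig1, Insig2, Abca1 and Abcg1, the members shown per library were picked in part for such a lack of overlap. For them it is therefore no separate finding. The share of members called was above that of all genes for TNFR2 and 4-1BB at both times and for OX40 at 36 h and below it in the other comparisons, and these gaps were not tested. Summed B cell markers at 18 h were 416 to 450 CPM with TNFR2, 452 to 468 CPM with 4-1BB, 371 to 387 CPM with DR3 and 386 to 395 CPM with OX40, against 324 to 349 CPM in controls. At 36 h they were 367 to 382 CPM with TNFR2, 356 to 369 CPM with 4-1BB, 339 to 351 CPM with DR3 and 321 to 341 CPM with OX40, against 310 to 328 CPM in controls. All groups except OX40 at 36 h thus lay clear above their controls. Summed Treg and T cell markers at 18 h were 5410 to 5750 CPM with TNFR2, 5590 to 5790 CPM with 4-1BB, 5570 to 5840 CPM with DR3 and 5670 to 6070 CPM with OX40, against 5870 to 5900 CPM in controls. At 36 h they were 4610 to 4860 CPM with TNFR2, 4620 to 4680 CPM with 4-1BB, 4640 to 4720 CPM with DR3 and 4780 to 4970 CPM with OX40, against 4900 to 5040 CPM in controls. These sums lay below the controls in every group but OX40, which overlapped with them at both times. The part of such cells in the results was not tested. Doses differed between agonists, and their counts are given side by side and not ranked.

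**Figure D3:**
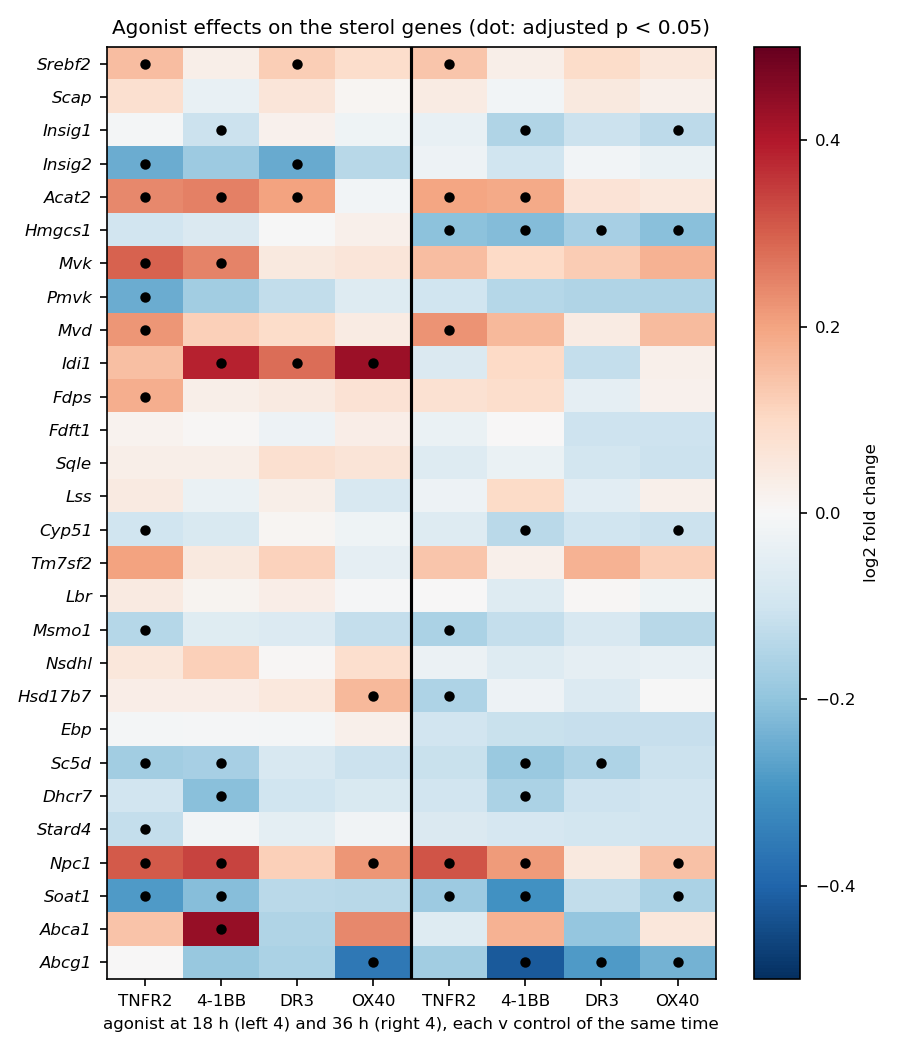
Log2 fold change of the 28 sterol genes for each agonist over the control of the same time, with red for higher, blue for lower and a dot where the adjusted p was below 0.05. Npc1 is red and Soat1 blue in all 8 columns, and Hmgcs1 carries a dot in all 4 columns at 36 h and in none at 18 h.

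Many of these calls rest on few libraries. Leaving out the libraries high in the ribosomal locus leaves 1 control at 18 h, so a call there can be lost with little change in value. Some values stayed close, as for Dhcr7 with 4-1BB (-0.21 and -0.22), and others shrank, as for Mvd with TNFR2 (0.22 and 0.14). Whether these libraries made the changes at 18 h was not tested. Without the libraries high in the ribosomal locus, the counts at 18 h were 4 for TNFR2, 1 for 4-1BB, 0 for DR3 and 1 for OX40, with 2 members at an unadjusted p below 0.05 in edgeR for DR3. The calls left at 18 h were those of Pmvk, Stard4, Npc1 and Soat1 with TNFR2, of Npc1 with 4-1BB and of Abcg1 with OX40. At 36 h the counts were 5 for TNFR2, 8 for 4-1BB, 4 for DR3 and 2 for OX40. Leaving out single libraries also moved counts: TNFR2 at 18 h had 8 without its replicate 2, DR3 at 18 h had 2 without control replicate 1 and 1 without control replicate 2, and OX40 at 18 h had 2 without its replicate 2. At 36 h TNFR2 had 5 without control replicate 2 or without its own replicate 2, DR3 had 1 without its replicate 2, and OX40 had 3 without control replicate 1, control replicate 2 or its own replicate 1. The calls kept under every alternative numbered 2, 1, 0 and 0 at 18 h and 3, 7, 0 and 1 at 36 h, in the order TNFR2, 4-1BB, DR3 and OX40. They are those of Npc1 and Soat1 with TNFR2 and of Npc1 with 4-1BB at 18 h, of Srebf2, Hmgcs1 and Npc1 with TNFR2, of Insig1, Hmgcs1, Cyp51, Sc5d, Npc1, Soat1 and Abcg1 with 4-1BB, and of Hmgcs1 with OX40 at 36 h. Losses listed per gene below come from leaving out libraries, and other alternatives also ended calls. DESeq2 ended those of Insig1 (4-1BB, 18 h, adjusted p 0.0567), Cyp51 and Msmo1 (TNFR2, 18 h, 0.08 and 0.062) and Dhcr7 (4-1BB, 36 h, 0.0812). A covariate for the ribosomal locus ended, among others, that of Abca1 with 4-1BB at 18 h (0.0693). Fitting only the groups compared ended, among others, that of Idi1 with DR3 at 18 h (0.0868).

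Npc1, the lysosomal exporter, was higher with the TNFR2, 4-1BB and OX40 agonists at both times. At 18 h it had 63.8, 63.8 and 64.5 CPM with TNFR2, 63.3, 64.8 and 68.4 CPM with 4-1BB, 55.4, 54.7 and 59.2 CPM with DR3 and 59.4 and 61.4 CPM with OX40, against 51.8, 51.5 and 52.1 CPM in controls. All 11 agonist libraries were above all 3 controls, by log2 0.31 ± 0.05, 0.34 ± 0.05, 0.12 ± 0.05 and 0.22 ± 0.05, with adjusted p of 4.61e-07, 3.5e-08, 0.064 and 0.000989. At 36 h it had 68.8, 70.5 and 70.6 CPM with TNFR2, 64.6, 64.5 and 66.3 CPM with 4-1BB, 57.2, 57.9 and 59.6 CPM with DR3 and 66.3, 61.8 and 57.5 CPM with OX40, against 57.1, 57.00 and 54.7 CPM in controls. The changes were 0.32 ± 0.04 (adjusted p 1.6e-07), 0.21 ± 0.04 (0.000193), 0.05 ± 0.04 (0.545) and 0.15 ± 0.04 (0.0167). The OX40 call at 36 h was lost without OX40 replicate 1 (0.08, adjusted p 0.332) and without control replicate 3 (0.12, adjusted p 0.102). The OX40 calls at 18 h (0.21, adjusted p 0.0818) and at 36 h (0.15, 0.069) were lost without the libraries high in the ribosomal locus. In the joint test of differences among the 4 agonists Npc1 had the lowest adjusted p of the 28 members, 0.002 at 18 h and 0.000109 at 36 h. Its rise with TNFR2 and 4-1BB put it within or above the range of resting cells (66.7, 62.1 and 65.5 CPM), a description with no test. Npc1 overlaps Rmc1 on the opposite strand.

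Soat1, the storage enzyme, was lower in all 8 comparisons and was called in 5. At 18 h it had 53.6, 51.7 and 55.5 CPM with TNFR2, 54.3, 54.2 and 60.5 CPM with 4-1BB, 64.3, 61.7 and 51.5 CPM with DR3 and 59.5 and 58.7 CPM with OX40, against 66.5, 65.3 and 63.8 CPM in controls. DR3 replicate 1 lay among the controls and the other libraries below them, with log2 fold changes of -0.28 ± 0.05 (adjusted p 2.34e-05), -0.21 ± 0.05 (0.00114), -0.13 ± 0.05 (0.0634) and -0.14 ± 0.06 (0.0773). At 36 h it had 82.7, 75.6 and 81.6 CPM with TNFR2, 72.6, 73.5 and 74.4 CPM with 4-1BB, 84.1, 80.2 and 85.5 CPM with DR3 and 79.4, 83.3 and 81.2 CPM with OX40, against 90.99, 91.7 and 89.1 CPM in controls. No agonist library reached the controls, with changes of -0.18 ± 0.05, -0.30 ± 0.05, -0.12 ± 0.05 and -0.16 ± 0.05 and adjusted p of 0.00322, 1.75e-06, 0.0749 and 0.0146. The TNFR2 call at 36 h was lost without TNFR2 replicate 2 (adjusted p 0.0514), and the OX40 call without OX40 replicate 1 (0.096) or control replicate 2 (0.0571). The 4-1BB call at 18 h was lost without the libraries high in the ribosomal locus (-0.18, adjusted p 0.123). The joint test among agonists gave an adjusted p of 0.131 at 18 h and 0.0425 at 36 h.

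**Figure D4:**
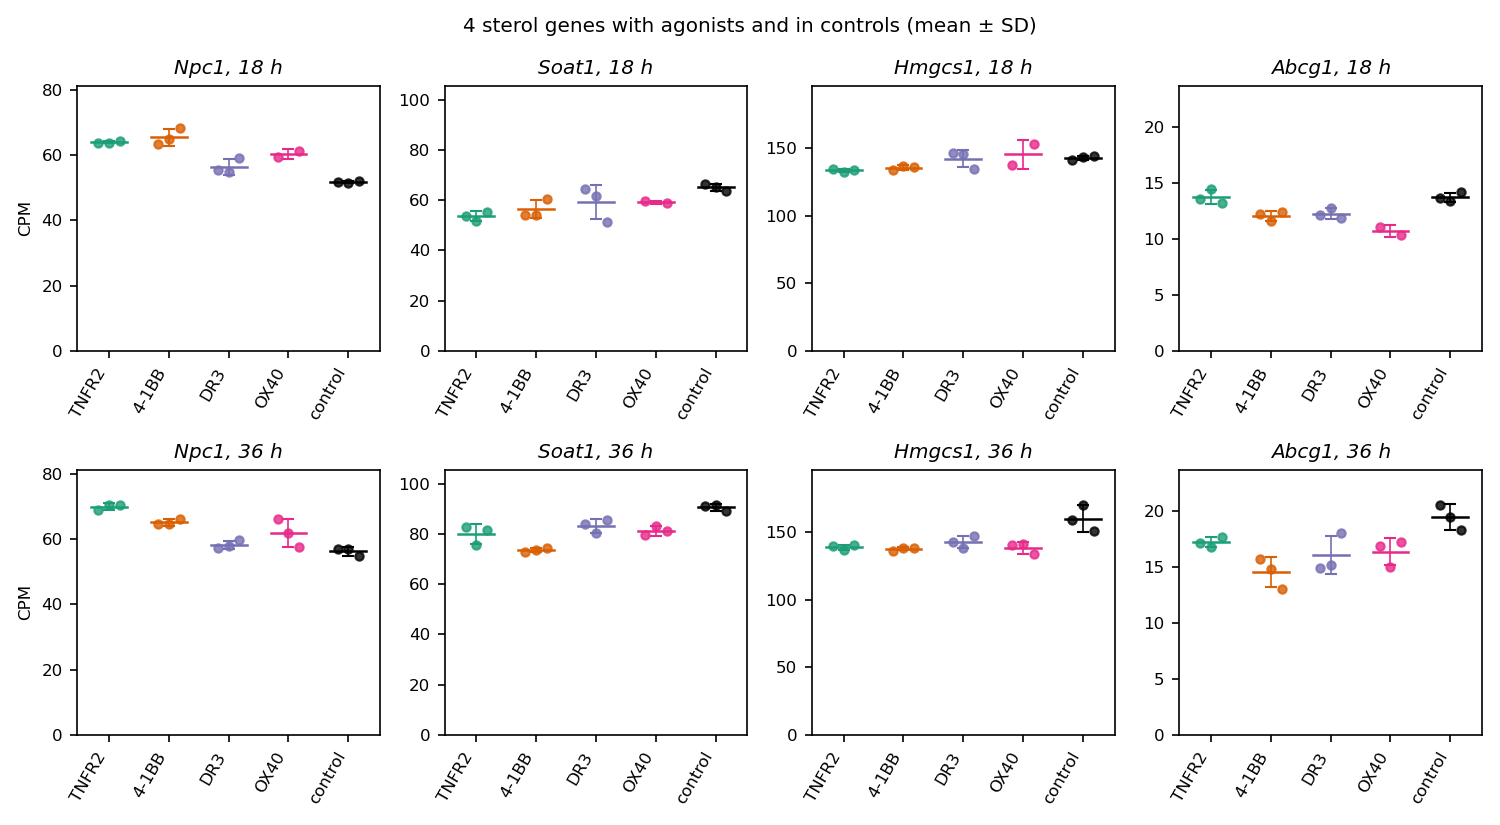
CPM of Npc1, Soat1, Hmgcs1 and Abcg1 per library (points) with mean ± SD, for the 4 agonists and their controls at 18 h (top) and 36 h (bottom). Npc1 lies above the controls and Soat1 mostly below them, with the 4-1BB libraries at 72.6 to 74.4 CPM and the controls at 89.1 to 91.7 CPM for Soat1 at 36 h.

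Among the early enzymes, Hmgcs1 was lower with every agonist at 36 h and was called with none at 18 h. At 36 h it had 139.8, 137 and 140.3 CPM with TNFR2, 136, 139 and 138 CPM with 4-1BB, 143, 138 and 148 CPM with DR3 and 141, 141 and 134 CPM with OX40, against 159, 171 and 151 CPM in controls. All 12 agonist libraries were below all 3 controls, which spread more widely than the libraries of any agonist. Log2 fold changes were -0.21 ± 0.04 (adjusted p 0.000241), -0.22 ± 0.04 (0.0001), -0.17 ± 0.04 (0.00519) and -0.21 ± 0.04 (0.000265). The DR3 call was lost without control replicate 2 (-0.11, adjusted p 0.115) or DR3 replicate 2 (-0.14, adjusted p 0.0513). At 18 h Hmgcs1 had 135, 132 and 134 CPM with TNFR2, 134, 137 and 136 CPM with 4-1BB, 147, 146 and 135 CPM with DR3 and 138 and 153 CPM with OX40, against 141, 143 and 144 CPM in controls. The TNFR2 and 4-1BB libraries lay below the controls and the DR3 and OX40 libraries on both sides of them, and adjusted p values were 0.0899, 0.232, 0.979 and 0.787.

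Idi1 was higher at 18 h with the 4-1BB, DR3 and OX40 agonists. It had 39.9, 35.8 and 43.2 CPM with TNFR2, 42.4, 48.99 and 48.9 CPM with 4-1BB, 50.5, 42.8 and 36.8 CPM with DR3 and 45.7 and 50.8 CPM with OX40, against 34.6, 34.8 and 37.8 CPM in controls. The 4-1BB and OX40 libraries stood clear of the controls, while 1 TNFR2 and 1 DR3 library lay among them. Changes were 0.15 ± 0.09 (adjusted p 0.198), 0.39 ± 0.08 (0.000628), 0.28 ± 0.09 (0.0196) and 0.43 ± 0.09 (0.000902). The DR3 call was lost without DR3 replicate 1 (0.16, adjusted p 0.183), control replicate 1 (0.26, 0.0712) or control replicate 2 (0.26, 0.0663). All 3 calls were lost without the libraries high in the ribosomal locus, with changes of 0.30 (adjusted p 0.137) for 4-1BB, 0.20 (0.446) for DR3 and 0.35 (0.128) for OX40. At 36 h Idi1 had 50.9, 45.5 and 47.03 CPM with TNFR2, 55.3, 53.3 and 52.97 CPM with 4-1BB, 46.3, 43.6 and 48.97 CPM with DR3 and 49.2, 51.6 and 53.4 CPM with OX40, against 49.02, 53.8 and 47.9 CPM in controls, and no comparison passed, with log2 fold changes of -0.12 to 0.10.

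Acat2 and Mvk, further early enzymes, were higher with some agonists. At 18 h Acat2 had 37.6, 39.04 and 34.5 CPM with TNFR2, 37.1, 34.9 and 40.04 CPM with 4-1BB, 36.4, 36.6 and 34.99 CPM with DR3 and 30.1 and 32.04 CPM with OX40, against 31.6, 30.6 and 31.8 CPM in controls. It rose with TNFR2 (0.24 ± 0.07, adjusted p 0.00335), 4-1BB (0.25 ± 0.06, 0.00234) and DR3 (0.20 ± 0.07, 0.0258), while the OX40 value was -0.01 ± 0.07 (0.936). The joint test gave an adjusted p of 0.0266 at 18 h. The DR3 call was lost on leaving out control replicate 1 or 2 (adjusted p 0.0532 and 0.0883) or DR3 replicate 1 or 2 (0.0721 and 0.0775). At 36 h Acat2 had 47.4, 41.5 and 45.1 CPM with TNFR2, 43.6, 46.7 and 43.03 CPM with 4-1BB, 42.9, 37.1 and 42.3 CPM with DR3 and 39.3, 43.1 and 39.2 CPM with OX40, against 37.5, 36.6 and 42.5 CPM in controls. It rose with TNFR2 (0.20, adjusted p 0.0125) and 4-1BB (0.19, 0.0158), although control replicate 3 lay within the range of the TNFR2 libraries, and both calls were lost without control replicate 1 (adjusted p 0.0567 and 0.0752) or 2 (0.0953 and 0.113). They were also lost without TNFR2 replicate 1 (0.0919) and without 4-1BB replicate 2 (0.114). At 18 h Mvk had 14.04, 16.1 and 15.96 CPM with TNFR2, 14.5, 16.2 and 13.7 CPM with 4-1BB, 13.6, 11.8 and 13.6 CPM with DR3 and 14.7 and 11.2 CPM with OX40, against 12.1, 12.9 and 12.5 CPM in controls. It rose with TNFR2 (0.29 ± 0.09, adjusted p 0.00667) and with 4-1BB (0.25 ± 0.09, 0.0244), and the 4-1BB call was lost without 4-1BB replicate 2 (0.167), control replicate 1 (0.0937) or control replicate 3 (0.0609). With TNFR2 at 18 h Mvd (0.22, adjusted p 0.00982) and Fdps (0.18, 0.00371) also rose and Pmvk (-0.25, 0.00931) fell. The Mvd call was lost without TNFR2 replicate 1 (0.0512), the Fdps call without TNFR2 replicate 2 (0.103), and the Pmvk call without TNFR2 replicate 2 (0.0961) or control replicate 3 (0.0856). The Pmvk value was -0.40 (adjusted p 0.0136) without the libraries high in the ribosomal locus. At 36 h Mvd rose with TNFR2 (0.23, adjusted p 0.0104), a call lost without control replicate 2 (0.159) or TNFR2 replicate 2 (0.0725). Without the libraries high in the ribosomal locus the TNFR2 calls of Mvk (0.35, adjusted p 0.0825), Mvd (0.14, 0.476), Fdps (0.19, 0.12) and Acat2 (0.20, 0.215) at 18 h were lost, as were the 4-1BB calls of Mvk (0.24, 0.252) and Acat2 (0.23, 0.125) and the DR3 call of Acat2 (0.18, 0.324). At 36 h the TNFR2 calls of Mvd (0.21, adjusted p 0.0568) and Acat2 (0.15, 0.141) were lost in the same way.

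In the sensing group, Srebf2 was above the control mean with every agonist. At 18 h it had 458, 460.1 and 430.4 CPM with TNFR2, 411, 408 and 418 CPM with 4-1BB, 429, 431 and 458 CPM with DR3 and 418 and 439 CPM with OX40, against 406, 399 and 406 CPM in controls. It rose with TNFR2 (0.16 ± 0.04, adjusted p 0.000581) and DR3 (0.12 ± 0.04, 0.0109), and the DR3 call was lost without DR3 replicate 3 (adjusted p 0.1) or control replicate 2 (0.0548). At 36 h it rose with TNFR2 alone among the 4 comparisons, at 412, 432 and 428 CPM, against 389, 371 and 396 CPM in controls (0.14 ± 0.04, adjusted p 0.00257), and the joint test did not pass (adjusted p 0.158). Insig1 was lower with 4-1BB at 36 h, at 82.5, 84.8 and 81.5 CPM, against 93.8, 90.5 and 92.1 CPM in controls (-0.15 ± 0.04, adjusted p 0.00234). With OX40 at 36 h Insig1 had 85.3, 83.6 and 83.2 CPM (-0.13 ± 0.04, adjusted p 0.0146), a call lost without control replicate 1 (0.0677) or OX40 replicate 3 (0.055). At 18 h the 4-1BB value of Insig1 was -0.11 (adjusted p 0.036), a call lost without any 1 of the 4-1BB libraries or without control replicate 1 or 3, with adjusted p up to 0.148. Insig2 at 18 h had 14.3, 17.4 and 15.4 CPM with TNFR2, 15.7, 16.8 and 16.6 CPM with 4-1BB, 16.4, 14.5 and 15.9 CPM with DR3 and 15.96 and 17.8 CPM with OX40, against 18.1, 18.8 and 18.8 CPM in controls. All 11 agonist libraries were below all 3 controls, and the fall passed with TNFR2 (-0.25 ± 0.07, adjusted p 0.00742) and DR3 (-0.25 ± 0.07, 0.0123). The calls were lost without TNFR2 replicate 1 (adjusted p 0.104) and without DR3 replicate 2 (0.105). Without the libraries high in the ribosomal locus the calls at 18 h were lost for Srebf2 with TNFR2 (0.13, adjusted p 0.175) and DR3 (0.11, 0.28), for Insig2 with TNFR2 (-0.20, 0.288) and DR3 (-0.27, 0.13) and for Insig1 with 4-1BB (-0.12, 0.207), and at 36 h for Insig1 with OX40 (-0.13, 0.0567). Scap was called in no agonist comparison, with log2 fold changes of -0.04 to 0.08.

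The late enzymes mostly stayed near their controls. Of the 12, Fdft1, Sqle, Lss, Tm7sf2, Lbr, Nsdhl and Ebp were called in none of the 8 comparisons. Sc5d was below the control mean in all 8 and called in 4, with TNFR2 (-0.17) and 4-1BB (-0.17) at 18 h and with 4-1BB (-0.19) and DR3 (-0.15) at 36 h. The DR3 call was lost without control replicate 1 (adjusted p 0.0816) or DR3 replicate 2 (0.0579). Cyp51 at 36 h had 222, 218 and 215 CPM with 4-1BB and 227, 226 and 215 CPM with OX40, against 243, 247 and 230.1 CPM in controls. The 4-1BB fall was -0.14 ± 0.04 (adjusted p 0.00373), with no overlap, and the OX40 fall was -0.11 ± 0.04 (0.0411), a call lost without control replicate 1 or 2 (0.133 and 0.218) or OX40 replicate 1 or 3 (0.0538 and 0.226). At 18 h Cyp51 was also called with TNFR2 (-0.10, adjusted p 0.038), which was lost without TNFR2 replicate 2 or 3 or control replicate 1 or 3 (up to 0.177). Msmo1 fell with TNFR2 at 18 h (-0.14, adjusted p 0.0415) and 36 h (-0.16, 0.0216). Dhcr7 fell with 4-1BB at 18 h (-0.21, adjusted p 0.00975) and 36 h (-0.16, 0.0472). Hsd17b7 rose with OX40 at 18 h (0.16, adjusted p 0.0291) and fell with TNFR2 at 36 h (-0.15, 0.0192). Each of these 6 calls was lost on leaving out at least 1 library. For Msmo1 these were TNFR2 replicates 1 and 2 and control replicates 2 and 3 at 18 h, and TNFR2 replicate 3 and control replicate 3 at 36 h. For Dhcr7 they were 4-1BB replicate 2 at 18 h, and each 4-1BB library and control replicates 1 and 3 at 36 h. For Hsd17b7 they were both OX40 libraries and control replicates 1 and 2 at 18 h, and TNFR2 replicate 2 and control replicate 2 at 36 h. Adjusted p without them was up to 0.254 for Msmo1, 0.213 for Dhcr7 and 0.162 for Hsd17b7. Without the libraries high in the ribosomal locus, calls were lost at 18 h for Sc5d with TNFR2 (-0.18, adjusted p 0.113) and 4-1BB (-0.19, 0.0571), Cyp51 with TNFR2 (-0.12, 0.234), Msmo1 with TNFR2 (-0.15, 0.283), Dhcr7 with 4-1BB (-0.22, 0.113) and Hsd17b7 with OX40 (0.10, 0.529). At 36 h they were lost for Cyp51 with OX40 (-0.12, adjusted p 0.0864), Dhcr7 with 4-1BB (-0.16, 0.0512) and Hsd17b7 with TNFR2 (-0.17, 0.0504). Stard4, of the movement group, fell with TNFR2 at 18 h (-0.12, adjusted p 0.0143), a call lost without TNFR2 replicate 2 (0.0862) or control replicate 3 (0.0835).

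The exporters, already low in stimulated cells, changed further with some agonists. Abca1 at 18 h had 4.57, 5.05 and 5.20 CPM with TNFR2, 5.81, 5.96 and 6.33 CPM with 4-1BB, 3.88, 4.34 and 3.76 CPM with DR3 and 5.79 and 4.67 CPM with OX40, against 4.59, 4.12 and 4.65 CPM in controls. All 3 libraries with 4-1BB were above the controls (0.44 ± 0.13, adjusted p 0.0115), and the call was lost without control replicate 2 (0.38, adjusted p 0.0629) or without the libraries high in the ribosomal locus (0.37, adjusted p 0.263). The level differed among the 4 agonists in the joint test (adjusted p 0.019). Myeloid markers summed to 2.68 to 4.18 CPM with 4-1BB, against 3.96 to 5.6 CPM in controls at 18 h. The part of such cells in the Abca1 value was not tested. Abcg1 at 18 h had 11.1 and 10.3 CPM with OX40, against 13.6, 13.3 and 14.2 CPM in controls, a change of -0.36 ± 0.09 on the log2 scale (adjusted p 0.00396) whose call was lost without OX40 replicate 2 (adjusted p 0.0827). The joint test for Abcg1 at 18 h gave an adjusted p of 0.0364. At 36 h Abcg1 had 17.1, 16.8 and 17.6 CPM with TNFR2, 15.7, 14.8 and 13.02 CPM with 4-1BB, 14.9, 15.2 and 18.03 CPM with DR3 and 16.8, 15.01 and 17.2 CPM with OX40, against 20.6, 19.4 and 18.2 CPM in controls. All 12 agonist libraries were below all 3 controls. The fall passed with 4-1BB (-0.42 ± 0.07, adjusted p 1.09e-05), DR3 (-0.29 ± 0.07, 0.00354) and OX40 (-0.24 ± 0.07, 0.0178), and the TNFR2 value was -0.17 ± 0.07 (0.0703). The DR3 call was lost without DR3 replicate 1 (adjusted p 0.0701), and the OX40 call without control replicate 1 (0.11), control replicate 2 (0.0558), OX40 replicate 2 (0.0941) or the libraries high in the ribosomal locus (0.104). Myeloid markers summed to 8.83 to 9.59 CPM with TNFR2, 6.79 to 7.37 CPM with 4-1BB, 9.71 to 10.6 CPM with DR3 and 8.79 to 9.04 CPM with OX40, against 11.1 to 12.7 CPM in controls at 36 h. Most of the control sum at 36 h came from Mpeg1 alone, so the sum is not a count of myeloid cells. The part of such cells in the Abcg1 values was not tested.

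Whether an agonist acted differently at 18 h and 36 h was asked with the difference between its 36 h and 18 h effects. No member passed for TNFR2, 4-1BB or DR3 (2, 4 and 6 with an unadjusted p below 0.05 in edgeR), against 6.69%, 4.37% and 2.31% of all genes. For OX40 1 member passed, Hmgcs1, against 3.48% of genes. Its OX40 effect was -0.21 at 36 h and 0.03 at 18 h, a difference of -0.23 ± 0.06 (adjusted p 0.0293). It was lost without OX40 replicate 2 at 18 h (-0.16, adjusted p 0.402), OX40 replicate 3 at 36 h (0.087), control replicate 1 or 2 at 18 h (0.0719 and 0.054) or control replicate 2 at 36 h (0.125), and without the libraries high in the ribosomal locus (0.323). The effect of OX40 on Idi1 differed by -0.40 ± 0.12 (adjusted p 0.0576) and that of DR3 by -0.40 ± 0.12 (0.0654), both just short of the threshold, and both passed in DESeq2 (adjusted p 0.0123 and 0.0169). In joint tests of differences among the 4 agonists, 4 members passed at 18 h (Acat2, Npc1, Abca1 and Abcg1), against 14.3% of genes, and 2 at 36 h (Npc1 and Soat1), against 9.06%. Single libraries moved these counts as well, and in the joint tests only the counts, not single genes, were followed over the alternatives. The OX40 count over time was 3 without OX40 replicate 1 at 18 h and 2 without control replicate 3 at 36 h, and the DR3 count was 1 without DR3 replicate 3 at 18 h. The joint count at 18 h was 8 without TNFR2 replicate 3, 7 without DR3 replicate 3 and 2 without OX40 replicate 2, and the joint count at 36 h was 1 without any 1 of the 4-1BB libraries or without DR3 replicate 1 or 3.

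Of 42 further sterol genes listed beside the members, 39 passed the low-count filter. In controls at 18 h 20 of these were higher and 15 lower than in resting cells, and at 36 h 22 were higher and 14 lower. The shares called were 89.7% at 18 h and 92.3% at 36 h, against 80.9% and 84.5% of all genes. Tmem97, a sterol-regulated membrane protein that binds NPC1, rose by 4.05 ± 0.09 at 18 h and 4.42 ± 0.08 at 36 h. Gramd1a, a carrier that brings cholesterol from the plasma membrane to the endoplasmic reticulum, fell, with log2 fold changes of -2.41 ± 0.04 and -2.36 ± 0.04. Of the 6 genes of movement between membranes in this list, Gramd1a among them, 5 fell and 0 rose at both times, in comparisons where 40.1% and 42.1% of all genes fell. No test was made of this count. The numbers changed by an agonist at 18 h were 12, 12, 7 and 6 of 39 for TNFR2, 4-1BB, DR3 and OX40, or 30.8%, 30.8%, 17.9% and 15.4%, against 31.1%, 25.8%, 19.6% and 19% of all genes. At 36 h they were 10, 16, 10 and 7, or 25.6%, 41%, 25.6% and 17.9%, against 24.8%, 22.5%, 13.4% and 13.3%. The shares at 18 h were near those of all genes, and none of these gaps was tested. Acid lipase Lipa fell with all 4 agonists at 18 h, with log2 fold changes of -0.38, -0.25, -0.25 and -0.23 in the same order. Nr1h2, which encodes LXR beta, rose with TNFR2 (0.23) and DR3 (0.26) at 18 h and with all 4 agonists at 36 h (0.24, 0.17, 0.17 and 0.15).

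Among these further genes the agonist change with the lowest adjusted p was that of Idi2, a paralog of the isomerase gene Idi1 and its neighbour. Resting cells held 5 reads of it over 3 libraries. At 18 h Idi2 had 7.92, 8.59 and 7.03 CPM with TNFR2, 15.7, 16.4 and 16.99 CPM with 4-1BB, 6.57, 6.07 and 5.97 CPM with DR3 and 13.2 and 12.03 CPM with OX40, against 4.03, 4.29 and 4.50 CPM in controls. All 11 agonist libraries were above all 3 controls. Log2 fold changes were 0.87 ± 0.12 (adjusted p 1.14e-07), 1.93 ± 0.11 (2.83e-20), 0.54 ± 0.13 (0.00206) and 1.56 ± 0.12 (1.75e-14). At 36 h it had 8.004, 8.04 and 6.75 CPM with TNFR2, 15.6, 15.4 and 14.3 CPM with 4-1BB, 6.02, 5.57 and 5.05 CPM with DR3 and 11.2, 12.1 and 9.81 CPM with OX40, against 4.27, 4.66 and 5.01 CPM in controls. It passed with TNFR2 (0.70), 4-1BB (1.70) and OX40 (1.24), and the DR3 value was 0.27 (adjusted p 0.137). The value for Idi1 with 4-1BB was 0.39 at 18 h and 0.10 at 36 h.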

How the data were processed

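RNA of sorted Tregs was made into 32 libraries with a SMART-Seq v4 kit, per the labels' protocols, and this kit does not mark strand. Expected counts and TPM per gene are the values the authors deposited for each library. FastQC, Trimmomatic, STAR 2.5.3a, RSEM 1.2.28 and the mm10 build are listed in the submitters' processing notes, and the annotation release is not given in the sources used here. RSEM shares reads that fit several loci between them, so a count need not be whole.

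Expected counts were rounded and fitted with edgeR 4.0.16 in R 4.3.3 (filterByExpr, TMM scaling, quasi-likelihood F test, 11 group means, all 32 libraries). Of 54087 genes, 14313 were tested, and p values were adjusted over these by Benjamini-Hochberg with a threshold of 0.05. The fit was tested on simulated data with known fold changes. CPM are scaled by TMM, so values are shares of the RNA and not amounts per cell. TPM served for levels compared between genes. Library totals were 11880270 to 38083925, and the biological coefficient of variation was 4%. The labels give replicate numbers but no separate animals or cultures, so p values measure the spread between these libraries. Gene positions are those of GENCODE M21 on mm10, and promoter windows those of RefSeq. All 28 members may be named. Values per library are given for at most 12 members, namely Srebf2, Insig1, Insig2, Abca1, Abcg1 and 7 others. These 7 recur most often among the 2 largest and 2 smallest eligible changes per comparison. A called change was eligible if the libraries compared did not overlap and the gene reached 5 CPM on one side. Idi1 with DR3 at 18 h, called at 0.28 with overlap, was thus passed over. The lack of overlap shown for these 7 genes is in part a product of this choice. Up to 4 further sterol genes with the lowest p per comparison may be named. Members, lists and this rule were chosen with earlier results of these data known. Alternatives were DESeq2 1.42.0, RLE scaling, no filter, a filter of 5 CPM in 3 libraries, a replicate block, a covariate for the ribosomal locus, leaving out the libraries above 10000 CPM there, fitting only the groups compared, and leaving out each library.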

Additional observations from a re-analysis of the deposited data

Results flagged for a closer look

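The effect of the OX40 agonist on Hmgcs1 differed between the times, by -0.23 ± 0.06 on the log2 scale (36 h minus 18 h, edgeR's quasi-likelihood test, adjusted p 0.0293). At 36 h Hmgcs1 had 141, 141 and 134 CPM with OX40, against 159, 171 and 151 CPM in controls. At 18 h it had 138 and 153 CPM with OX40, against 141, 143 and 144 CPM in controls. Of 19 alternatives, 8 ended the call, among them leaving out the OX40 library with 153 CPM (-0.16, adjusted p 0.402) and leaving out the control with 171 CPM (-0.19, adjusted p 0.125). Over the alternatives the adjusted p reached 0.402 at most. Groups of at most 3 libraries are too small for a test of outlying values, and none was run.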

How the results depend on the processing

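Joint tests aside, there were 130 calls of a member in a comparison. Of these, 78 were kept under every alternative and none of 420 member and comparison pairs changed sign while called. The calls kept were 26 of 27 for controls at 18 h and 28 of 28 at 36 h against resting cells, 10 of 18 between 36 h and 18 h, and 14 of 56 with agonists. DESeq2 kept 122 of the 130, RLE scaling 123, no filter 123, the stricter filter 129, the replicate block 127, the ribosomal covariate 114, fits of only the groups compared 125 and leaving out the libraries high in the ribosomal locus 88. Scaling moved the median of all genes by less than 0.1. Without those libraries, members called were 11 between 36 h and 18 h, 4, 1, 0 and 1 for TNFR2, 4-1BB, DR3 and OX40 at 18 h, 5 and 2 for TNFR2 and OX40 at 36 h, 0 for the OX40 effect over time, and 2 and 1 in the joint tests at 18 h and 36 h. With 1 control left at 18 h, that control is assumed to vary like the other groups. With the covariate they were 5 for 4-1BB at 18 h, 5 for DR3 at 36 h, 1 and 0 for the DR3 and OX40 effects over time and 1 in the joint test at 36 h. With only the groups compared they were 6 for DR3 at 36 h, 1 for the 4-1BB effect over time, and 2 and 4 in the joint tests. The stricter filter gave 5 and 10 for DR3 and OX40 at 36 h and 2 for the OX40 effect over time. No filter gave 1, 1 and 2 for the 4-1BB, DR3 and OX40 effects over time and 7 in the joint test at 18 h. DESeq2 gave 1 and 2 for the DR3 and OX40 effects over time and RLE gave 2 for OX40. The cause of these shifts was not tested. Values against resting cells moved too. Over the alternatives at 18 h Srebf2 ran from 0.61 to 0.77 (0.74 in the main fit) and Scap from 0.28 to 0.44 (0.40). Under the stricter filter Insig2 was 0.05, against 0.17 in the main fit. Such moves can exceed the SEs printed above, which leave them out. The median of all genes does not show them, and under that filter it covers 10336 genes and not 14313. Same-numbered libraries did not deviate together (correlations of -0.167 to 0.137 over 32 pairs). Low correlations cannot exclude that equal numbers share an animal or a culture, so whether the numbers pair the samples stays unknown. The replicate block gave 1 in the joint test at 36 h and kept the other counts within 1.5 times. Leaving out 1 library gave 26 to 27 and 28 to 28 members against resting cells at 18 h and 36 h and 12 to 17 between them. It gave 8 to 13, 7 to 8, 1 to 4 and 2 to 4 for TNFR2, 4-1BB, DR3 and OX40 at 18 h and 5 to 8, 7 to 9, 1 to 4 and 3 to 6 at 36 h. Effects over time gave 0 for TNFR2 and 4-1BB, 0 to 1 for DR3 and 0 to 3 for OX40, and the joint tests 2 to 8 and 1 to 2.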
